A study of Mus musculus with 40 samples.

Results

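The genes described here are Grem1 and 8 further genes of bone morphogenetic protein (BMP) signalling, namely the ligands Bmp2, Bmp4, Bmp6 and Bmp7, the antagonist Sostdc1, the inhibitory Smad6 and the target genes Id1 and Id3. They were taken by symbol from the count table, in which each matched 1 row, so that 9 of 55401 genes are covered. They were chosen by symbol with measured expression differences between these groups in view, and the contrast behind that choice is not recorded. Their levels and differences are therefore given as a description, and the p-values show only where each gene stood among all genes tested.

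RNA was sequenced from the renal cortex of 40 male C57BL/6J mice that formed 8 groups of 5. Ins2-Akita heterozygous mice (Akita mice), which carry a mutated insulin gene and become diabetic without obesity, were compared with wild type (WT) littermates. Both genotypes received the ethanol vehicle (10% ethanol in water), MitoGamide at 10 mg/kg in that vehicle, the water vehicle, or MitoQ. The protocol in the labels, which is the same for every sample, gives oral gavage from 6 to 22 weeks of age. It names only the ethanol vehicle and MitoGamide, and neither the dose nor the vehicle of MitoQ is given in the sources used here. The MitoQ groups were compared with the water groups on the assumption that water was their vehicle, and both together are called the water arm. MitoGamide is a mitochondria-targeted scavenger of dicarbonyls and MitoQ a mitochondria-targeted antioxidant.

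BMPs are secreted ligands that bind pairs of type I and type II receptor kinases, which phosphorylate Smad1, Smad5 and Smad9, and these carry the signal into the nucleus together with Smad4. Extracellular antagonists such as gremlin and uterine sensitization-associated gene 1 (the product of Sostdc1) bind the ligands and keep them from the receptors, while Smad6 and Smad7 act inside the cell against the receptors. In the kidney, Bmp7 is made by tubules and podocytes and is needed for nephron formation, and gremlin is known for its induction in diabetic kidneys.

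Libraries held between 9106654 and 24321424 estimated counts. The library of WT mice on MitoQ, replicate 3, stood apart from the others, with a median correlation of 0.89 to the other libraries (the next lowest was 0.916) and 46.6% of its counts from mitochondrial ribosomal RNA, where the median library had 21.8% and the lowest 9.23%. Akita mice on water, replicates 2 and 5, were next with 41.5% and 38.6%. With the ethanol vehicle this RNA made up 15.8% to 23.6% in Akita and 15.1% to 17.7% in WT mice. Under MitoGamide the ranges were 22.4% to 27.2% and 18.3% to 22.7%. They were 19.3% to 41.5% and 9.23% to 34.6% with water, and 20% to 31.8% and 20.1% to 46.6% with MitoQ. The part of this share in the genotype differences was not tested. The tissue label was checked against marker genes. The summed level of 7 proximal tubule markers was between 8140 and 16200 CPM in WT mice, while 3 urothelial and 3 adipocyte markers summed to at most 8.6 and 14.9 CPM in any library, and 4 liver markers to 416 CPM in WT mice on water, replicate 1, and at most 62.8 CPM in each other library. CPM is a gene's estimated count scaled to the size of its library and corrected with TMM factors, and every p is from edgeR's quasi-likelihood test with Benjamini-Hochberg adjustment over all genes tested. A gene was called where the adjusted p was under 0.05.

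Grem1 lies on the minus strand (chr2:113746164-113758646, GRCm38, 1 annotated transcript with an exon length of 4148 bases) and overlaps no other annotated gene. Because it was the member with the widest difference between genotypes, the 250 bases before its start are shown, from RefSeq (GRCm38.p6, chr2:113758649-113758898, minus strand). Capitals mark matches to the motif letters GGCGCC and CAGAC, which BMP and TGF-beta Smads are known to bind, searched on both strands. Neither motif contains the other.

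Grem1: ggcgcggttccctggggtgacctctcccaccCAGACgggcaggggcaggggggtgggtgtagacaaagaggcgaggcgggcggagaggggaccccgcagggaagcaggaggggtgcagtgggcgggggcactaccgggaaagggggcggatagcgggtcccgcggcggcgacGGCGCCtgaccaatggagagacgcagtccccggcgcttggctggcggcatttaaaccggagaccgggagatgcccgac

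The GGCGCC match starts 78 bases and the CAGAC match 219 bases before the gene's start. Of 32536 different promoter windows of 250 bases, 9.65% held GGCGCC and 42.2% held CAGAC on either strand. RefSeq promoters were found for 5 of the 9 genes, and GGCGCC was present in 1 of these 5 windows. Id3 had 2 CAGAC matches, Bmp6 had 1, and Bmp4 and Smad6 had neither motif. A match describes these letters only.

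Grem1 encodes gremlin, a secreted antagonist that binds Bmp2, Bmp4 and Bmp7. It was close to absent in WT mice and present in Akita mice under each treatment. With the ethanol vehicle, the 5 WT libraries had 0.384, 0.156, 0.04, 0.122 and 0.435 CPM (between 1 and 9 estimated counts), and the 5 Akita libraries had 2.73, 2.83, 0.565, 2.78 and 4.14 CPM (between 8 and 71 counts). The groups did not overlap, although Akita replicate 3 was close to the WT range.

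With the water vehicle, Grem1 was at 0.287, 0, 0.178, 0.106 and 0.0616 CPM in WT mice and at 4.26, 3.65, 5.46, 5.16 and 17.8 CPM in Akita mice. Akita replicate 5, which had a high share of mitochondrial ribosomal RNA (38.6%), was high, and the other 4 Akita libraries lay close together, far above the WT libraries. Replicate 2, with 41.5% of such RNA, had the lowest of the Akita values.

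Under MitoGamide, WT mice had 0.34, 0.185, 0.137, 0.0703 and 0.188 CPM of Grem1, and Akita mice had 2.88, 13.4, 4.37, 8.85 and 12.7 CPM. Under MitoQ, WT mice had 0.313, 0.0708, 0.649, 0.405 and 0.303 CPM, and Akita mice had 1.85, 14.9, 7.89, 3.51 and 5.47 CPM. In both pairs of groups every Akita library was above every WT library, and the Akita libraries were spread widely.

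**Figure D1:**
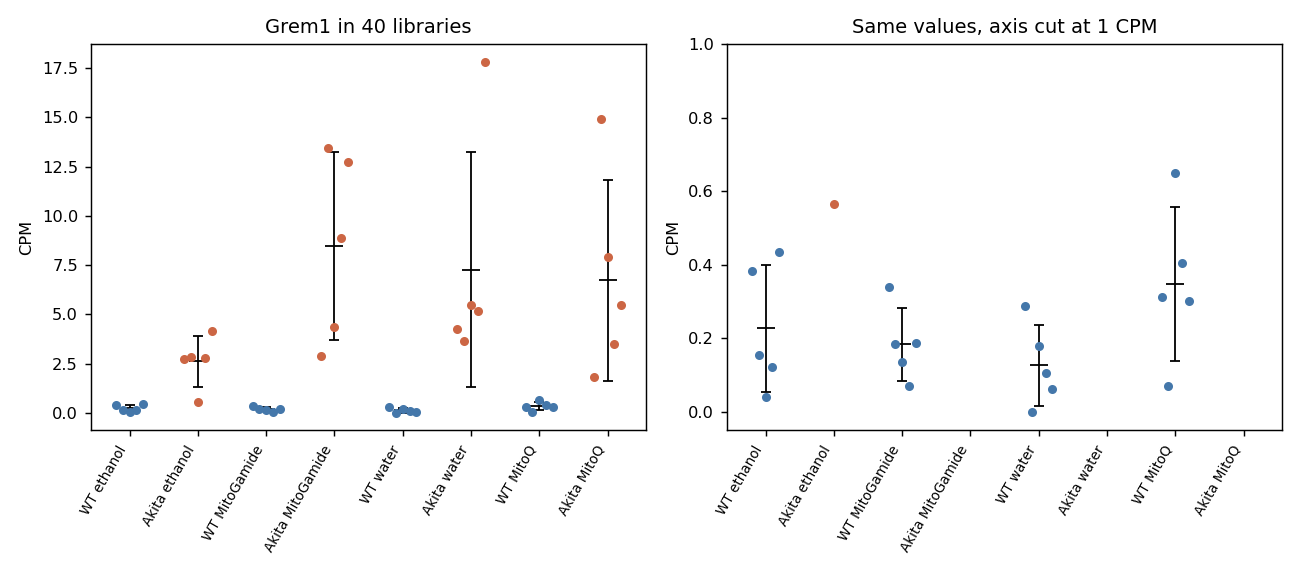
Grem1 level (CPM, y axis) in each of 40 libraries by group (x axis), with points for libraries, bars for the mean ± SD of 5 libraries, blue for WT and orange for Akita mice. On the right the axis is cut at 1 CPM, which leaves out the Akita libraries above it: the 20 WT libraries lie between 0 and 0.649 CPM, and 19 of 20 Akita libraries lie above 0.649 CPM.

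The difference in Grem1 between Akita and WT mice was 3.57 ± 0.53 (log2 fold change ± SE, n = 5 per group, adjusted p = 0.000571) with the ethanol vehicle, or 11.9-fold. It was 5.74 ± 0.67 with water (adjusted p = 0.00318), 5.48 ± 0.55 with MitoGamide (adjusted p = 0.000148) and 4.42 ± 0.64 with MitoQ (adjusted p = 0.00823). Since WT libraries held at most 9 counts of Grem1, the size of these folds is less certain than their direction. When each of the 10 libraries of a comparison was left out in turn, the gene kept its call. The log2 fold changes were then between 3.24 and 4.01 (ethanol), 5.13 and 6.25 (water), 5.24 and 5.79 (MitoGamide) and 3.9 and 4.67 (MitoQ). In each comparison Grem1 passed the filter on low counts only through its Akita libraries. A difference was thereby fixed in advance, and these calls and refits are no separate support for it.

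Across all 40 libraries, with treatment as a factor, Grem1 was higher in Akita mice by 4.75 ± 0.34 on the log2 scale (26.8-fold, adjusted p = 6.61e-14). This was the second largest log2 fold change of 17769 genes. The gene passed the filter on low counts (a mean of 10 or more) only through the Akita groups, so that it had to differ once it was tested, and it was not tested in comparisons of WT groups alone. In these bulk samples, more cells that express a gene and more RNA per cell cannot be told apart.

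In order of their mean level, the groups were Akita on MitoGamide (8.46 ± 4.77 CPM, mean ± SD, n = 5), Akita on water (7.27 ± 5.95), Akita on MitoQ (6.72 ± 5.1) and Akita on the ethanol vehicle (2.61 ± 1.29). The first 3 groups differed by less than their SD, and the last was lower than Akita on MitoQ by more than its own SD but less than that of the MitoQ group. The WT groups followed with 0.348 ± 0.208 CPM (MitoQ), 0.227 ± 0.173 (ethanol vehicle), 0.184 ± 0.0994 (MitoGamide) and 0.127 ± 0.111 (water). Neighbouring WT groups also differed by less than their SD.

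MitoGamide-treated Akita mice had more Grem1 than Akita mice on the ethanol vehicle, with a log2 fold change of 1.68 ± 0.46 (unadjusted p = 0.00313), which did not pass the threshold (adjusted p = 0.08). Both groups overlapped, since the lowest MitoGamide library (2.88 CPM) was below the highest vehicle library (4.14 CPM). DESeq2 called the gene (adjusted p = 0.0403), and the adjusted p over all alternatives was between 0.0403 and 0.172. MitoQ against water in Akita mice gave -0.07 ± 0.54 (adjusted p = 0.999). Both vehicle groups of Akita mice entered the comparisons with WT mice as well.

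Among the ligands, Bmp7 differed by a small and even step. With the ethanol vehicle, WT mice had 27.6, 28.4, 30.7, 29.9 and 28.3 CPM of Bmp7, and Akita mice had 38.2, 38.6, 34.9, 37.3 and 37.6 CPM. Under MitoGamide, the values were 27.2, 29, 28.9, 29.7 and 27.4 CPM in WT mice and 32.4, 36.7, 36.8, 41.3 and 33 CPM in Akita mice. Under both treatments the genotypes did not overlap.

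With the water vehicle, Bmp7 was at 29.2, 30.4, 24.7, 26.6 and 34.9 CPM in WT mice and at 42.8, 33.1, 30.3, 36.1 and 33.1 CPM in Akita mice, and the groups overlapped. Under MitoQ, WT mice had 22.5, 28.6, 25.1, 26 and 25.2 CPM, and Akita mice had 38.7, 30.7, 31.7, 33.2 and 32.2 CPM, without overlap. The log2 fold change ± SE of Bmp7 was 0.38 ± 0.06 with the ethanol vehicle (adjusted p = 0.000503), 0.38 ± 0.09 with MitoGamide (adjusted p = 0.0157), 0.39 ± 0.1 with MitoQ (adjusted p = 0.152) and 0.27 ± 0.15 with water (adjusted p = 0.817). Over all treatments it was 0.34 ± 0.04 (1.27-fold, adjusted p = 1.33e-07), and all 20 Akita libraries were above the WT median of 28.4 CPM.

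Bmp6, a ligand best known for its part in iron sensing by the liver, had a higher level per exon length than the other ligands measured here. With the ethanol vehicle, WT mice had 54.3, 51.7, 64.2, 54.1 and 50.4 CPM, and Akita mice had 74.1, 65.7, 65.2, 76.2 and 65 CPM. Under MitoGamide, WT mice had 45.6, 47.5, 47.8, 46.1 and 50.5 CPM, and Akita mice had 61.9, 60.6, 62.8, 63 and 101 CPM. The genotypes did not overlap in either pair, and replicate 5 of the MitoGamide-treated Akita mice was far above its group.

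In the water arm, Bmp6 ranged from 38.9 to 75.7 CPM in WT mice on water and from 58 to 68 CPM in Akita mice on water, which overlapped. It ranged from 34.6 to 51.9 CPM in WT mice on MitoQ and from 54 to 72.5 CPM in Akita mice on MitoQ, which did not. Bmp6 was called with the ethanol vehicle (log2 fold change 0.35 ± 0.07, adjusted p = 0.00557), with MitoGamide (0.58 ± 0.13, adjusted p = 0.0126) and over all treatments (0.41 ± 0.07, adjusted p = 1.3e-05), but not with water (0.26 ± 0.17, adjusted p = 0.918) or MitoQ (0.48 ± 0.14, adjusted p = 0.195).

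Bmp4 (chr14:46383520-46390669) and Bmp6 (chr13:38345107-38500302) each overlap 2 genes on the opposite strand. The library kit kept the strand, but whether the counting used it is not given in the sources used here. Reads of these genes and their partners may therefore be mixed.

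Bmp4, a ligand that acts in early kidney branching, was between 10.6 and 16.9 CPM in all WT libraries and between 11.3 and 24.1 CPM in all Akita libraries. Under MitoGamide, WT mice had 13, 14.4, 11.8, 12.8 and 13.6 CPM, and Akita mice had 16.4, 17.4, 17.5, 15.7 and 24.1 CPM. These groups did not overlap, and Bmp4 was higher by 0.5 ± 0.12 on the log2 scale (adjusted p = 0.0154).

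Bmp4 was not called with the ethanol vehicle (0.3 ± 0.1, adjusted p = 0.0702), and its log2 fold change was 0 ± 0.14 with water (adjusted p = 1) and 0.07 ± 0.17 with MitoQ (adjusted p = 0.977). Over all treatments it was 0.21 ± 0.07 (adjusted p = 0.0281). This call was lost without the MitoGamide groups (0.13, adjusted p = 0.374) or the ethanol groups (0.21, adjusted p = 0.128), with no filter on low counts (0.22, adjusted p = 0.0716), and without replicates 3, 4 or 5 of every group (adjusted p = 0.121, 0.135 and 0.125).

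Bmp2, which had the fewest counts of the 4 ligands described here (between 4 and 67 per library), differed most under MitoGamide. WT mice on MitoGamide had 1.09, 1.29, 1.3, 0.633 and 1.78 CPM, and Akita mice on MitoGamide had 4.83, 2.51, 2.18, 3.23 and 2.56 CPM. The groups did not overlap, and the log2 fold change was 1.33 ± 0.29 (2.51-fold, adjusted p = 0.0129).

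With water the sign was the opposite and not called. Bmp2 was at 2.08, 2.26, 2.32, 2.76 and 1.66 CPM in WT mice and at 1.02, 2.28, 1.84, 1.38 and 1.45 CPM in Akita mice, a log2 fold change of -0.48 ± 0.27 (adjusted p = 0.817). The test of whether the genotype difference varied between the 4 treatments gave an unadjusted p of 0.000589 for Bmp2, which did not pass adjustment (adjusted p = 0.455). Over all treatments the log2 fold change was 0.36 ± 0.17 (adjusted p = 0.113).

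Sostdc1, which encodes an antagonist of Bmp4 and Bmp7 made in the distal tubule, had with the ethanol vehicle 28.4, 37.6, 24.9, 24.5 and 29.9 CPM in WT mice and 45, 45.9, 42.3, 62 and 43.5 CPM in Akita mice. These groups did not overlap. Under MitoGamide, WT mice had 30.7, 29.2, 28.4, 23.4 and 25.5 CPM, and Akita mice had 49.6, 76, 46.6, 46.1 and 29.2 CPM, so that Akita replicate 5 lay within the WT range.

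Sostdc1 was higher in Akita mice by 0.73 ± 0.13 on the log2 scale with the ethanol vehicle (1.66-fold, adjusted p = 0.00166), by 0.89 ± 0.2 with MitoGamide (1.85-fold, adjusted p = 0.0133) and by 0.55 ± 0.12 over all treatments (adjusted p = 0.000498). In the water arm the groups overlapped, with 16.5 to 46.2 CPM in WT mice and 27.8 to 40.7 CPM in Akita mice on water, and 11.5 to 31.1 CPM in WT mice and 21.7 to 41.4 CPM in Akita mice on MitoQ. The log2 fold changes there were 0.23 ± 0.26 (adjusted p = 1) and 0.38 ± 0.25 (adjusted p = 0.779). Beside these values, the summed level of 3 distal convoluted tubule markers had a median of 749 CPM in WT and 972 CPM in Akita mice. Over all treatments 1 of these 3 markers was called higher, where 11.0% of all genes were. The summed level of 4 thick ascending limb markers had medians of 1660 and 1380 CPM, with 1 of 4 called lower, where 22.8% of all genes were called in either direction. Their part in the result was not tested.

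**Figure D2:**
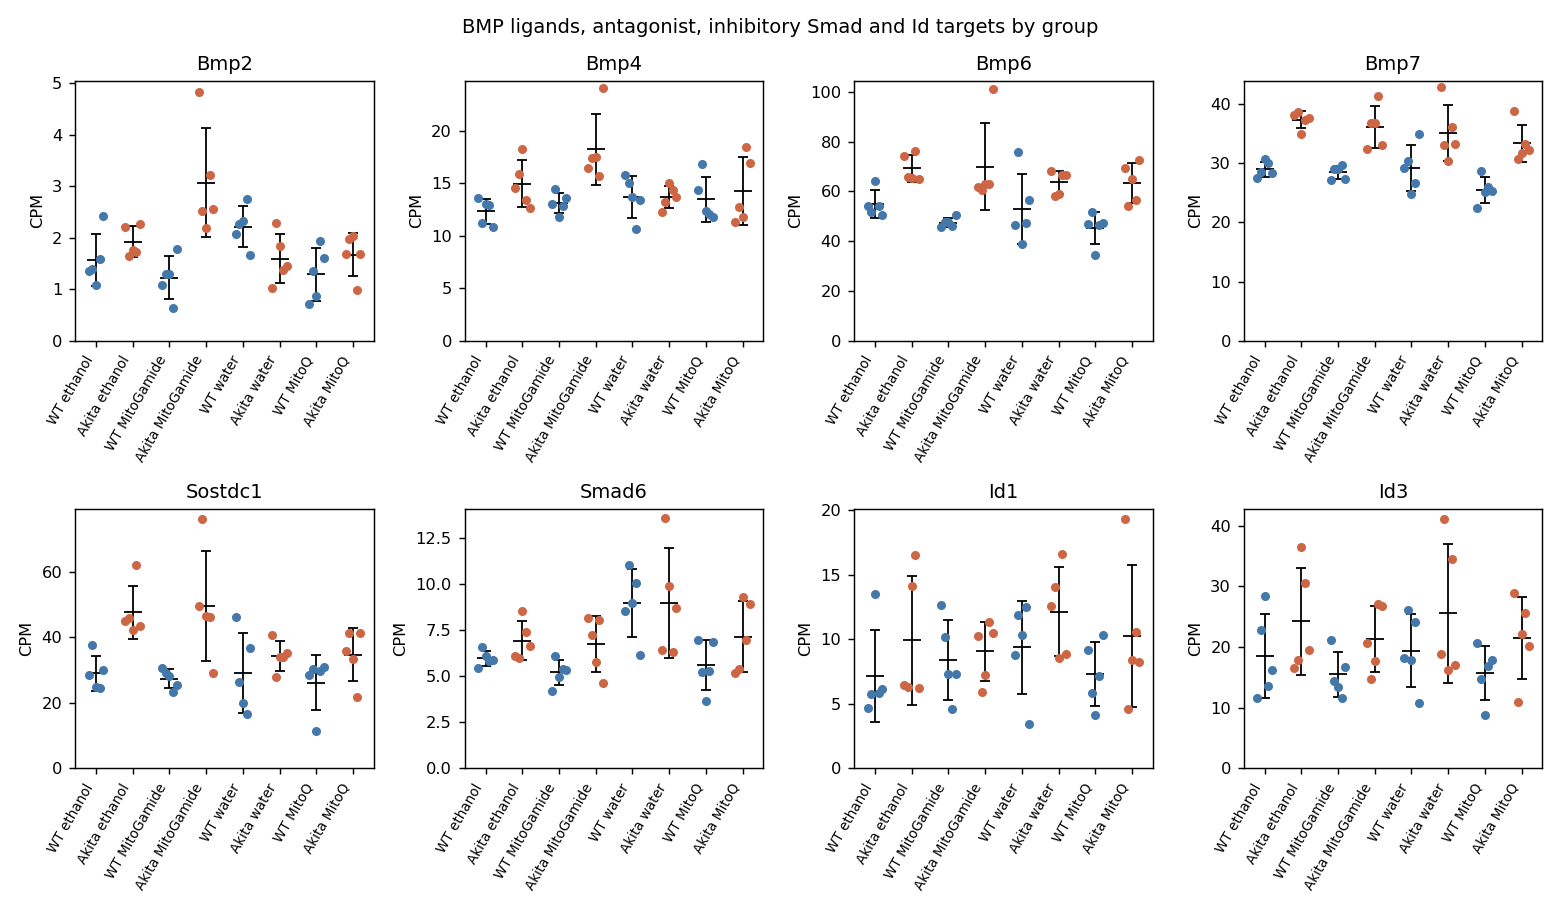
Level (CPM, y axis from 0) of the other 8 genes in each library by group (x axis), with points for libraries, bars for the mean ± SD of 5 libraries, blue for WT and orange for Akita mice. Bmp6 and Bmp7 are separated by genotype under the ethanol vehicle, MitoGamide and MitoQ, while Id1 and Id3 overlap in every pair.

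Smad6, an inhibitory Smad that BMP signalling itself induces, was not called between genotypes under any treatment. It was at 5.45, 6.59, 6.08, 5.85 and 5.89 CPM in WT mice and at 6.07, 5.98, 8.54, 7.38 and 6.64 CPM in Akita mice with the ethanol vehicle. With water it was at 8.53, 11, 8.97, 10.1 and 6.16 CPM in WT mice and at 6.43, 13.6, 9.87, 6.32 and 8.71 CPM in Akita mice. The genotypes overlapped, and the water groups were higher than the ethanol groups in most libraries. Under MitoGamide the genotype log2 fold change of Smad6 was 0.42. The gene was called in 1 of 10 fits that left out a library, the fit without Akita replicate 5 (0.52, adjusted p = 0.0283).

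Over all treatments, the genotype difference of Smad6 was 0.22 ± 0.1 (log2 fold change, adjusted p = 0.0947). Between the vehicle groups of both arms, Smad6 was lower with ethanol than with water (-0.44 ± 0.13, adjusted p = 0.0137), the 1 of 9 genes called where 45.8% of all 18050 genes tested were called. The call was lost without replicate 2 of each group (-0.31, adjusted p = 0.112) or without replicate 3 (-0.47, adjusted p = 0.0755). In these fits the number called over all genes fell from 8267 to 3 and 9. Vehicle and arm cannot be told apart.

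Id1 and Id3, transcription regulators without a DNA-binding domain, are direct targets of BMP Smads. Id3 ranged from 8.87 to 28.4 CPM in WT mice, with a median of 16.8, and from 10.9 to 41.2 CPM in Akita mice, with a median of 20.4. The genotypes overlapped under every treatment. The log2 fold change was 0.38 ± 0.26 with the ethanol vehicle (adjusted p = 0.355), 0.4 ± 0.31 with water (adjusted p = 0.977), 0.49 ± 0.19 with MitoGamide (adjusted p = 0.105) and 0.42 ± 0.25 with MitoQ (adjusted p = 0.736).

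Over all treatments Id3 was higher in Akita mice by 0.41 ± 0.14 (adjusted p = 0.0257). This call was lost without the ethanol (0.44, adjusted p = 0.051), MitoGamide (0.41, adjusted p = 0.12) or MitoQ groups (0.43, adjusted p = 0.0528), with log2 fold changes about as large. It was also lost without replicate 4 of every group (0.31, adjusted p = 0.215) or replicate 5 (0.42, adjusted p = 0.0592). Id1 ranged from 3.45 to 13.5 CPM in WT mice and from 4.64 to 19.3 CPM in Akita mice, and was not called (0.35 ± 0.17, adjusted p = 0.146).

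Of the 9 genes, 4 were called between genotypes with the ethanol vehicle (Grem1, Bmp6, Bmp7 and Sostdc1), all higher in Akita mice, where 8.18% of all genes were called higher. With MitoGamide 6 were called higher (the same 4, Bmp2 and Bmp4), where 7.71% of all genes were called higher. Grem1 was the 1 gene called with water and with MitoQ, where 0.186% and 0.265% of all genes were called higher. Over all treatments 6 were called, all higher in Akita mice, where 11.0% of all genes were called higher and 22.8% in either direction. Because the choice of the genes used these data, nothing is read from these counts.

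The members' median log2 fold change over all treatments was 0.36, and that of all genes tested was -0.02. The number called was 4 without the ethanol groups and 4 without the MitoGamide groups, where 13.5% and 13.3% of all genes were called in either direction. It was 8 without the water groups and 5 without the MitoQ groups, where 26.9% and 19.7% were called, and 6 without the library of WT mice on MitoQ that stood apart (24.6%).

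The groups of Grem1 did not overlap under any of the 4 treatments. With the ethanol vehicle, 4 of the 9 genes were higher in every Akita than in every WT library, where 5.52% of all genes were, and with MitoGamide 5 were, where 5.40% of all genes were. With water 1 was, where 0.934% of all genes were, and with MitoQ 3 were (Grem1, Bmp6 and Bmp7), where 1.39% of all genes were.

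The test of whether the genotype difference varied between treatments called 0 of 17769 genes (883 at an unadjusted p under 0.05, and 15 by DESeq2), so that the greater number of calls with the ethanol vehicle and MitoGamide is not shown to be a difference between treatments. For Grem1 the unadjusted p was 0.181, and for Bmp7 it was 0.808.

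**Figure D3:**
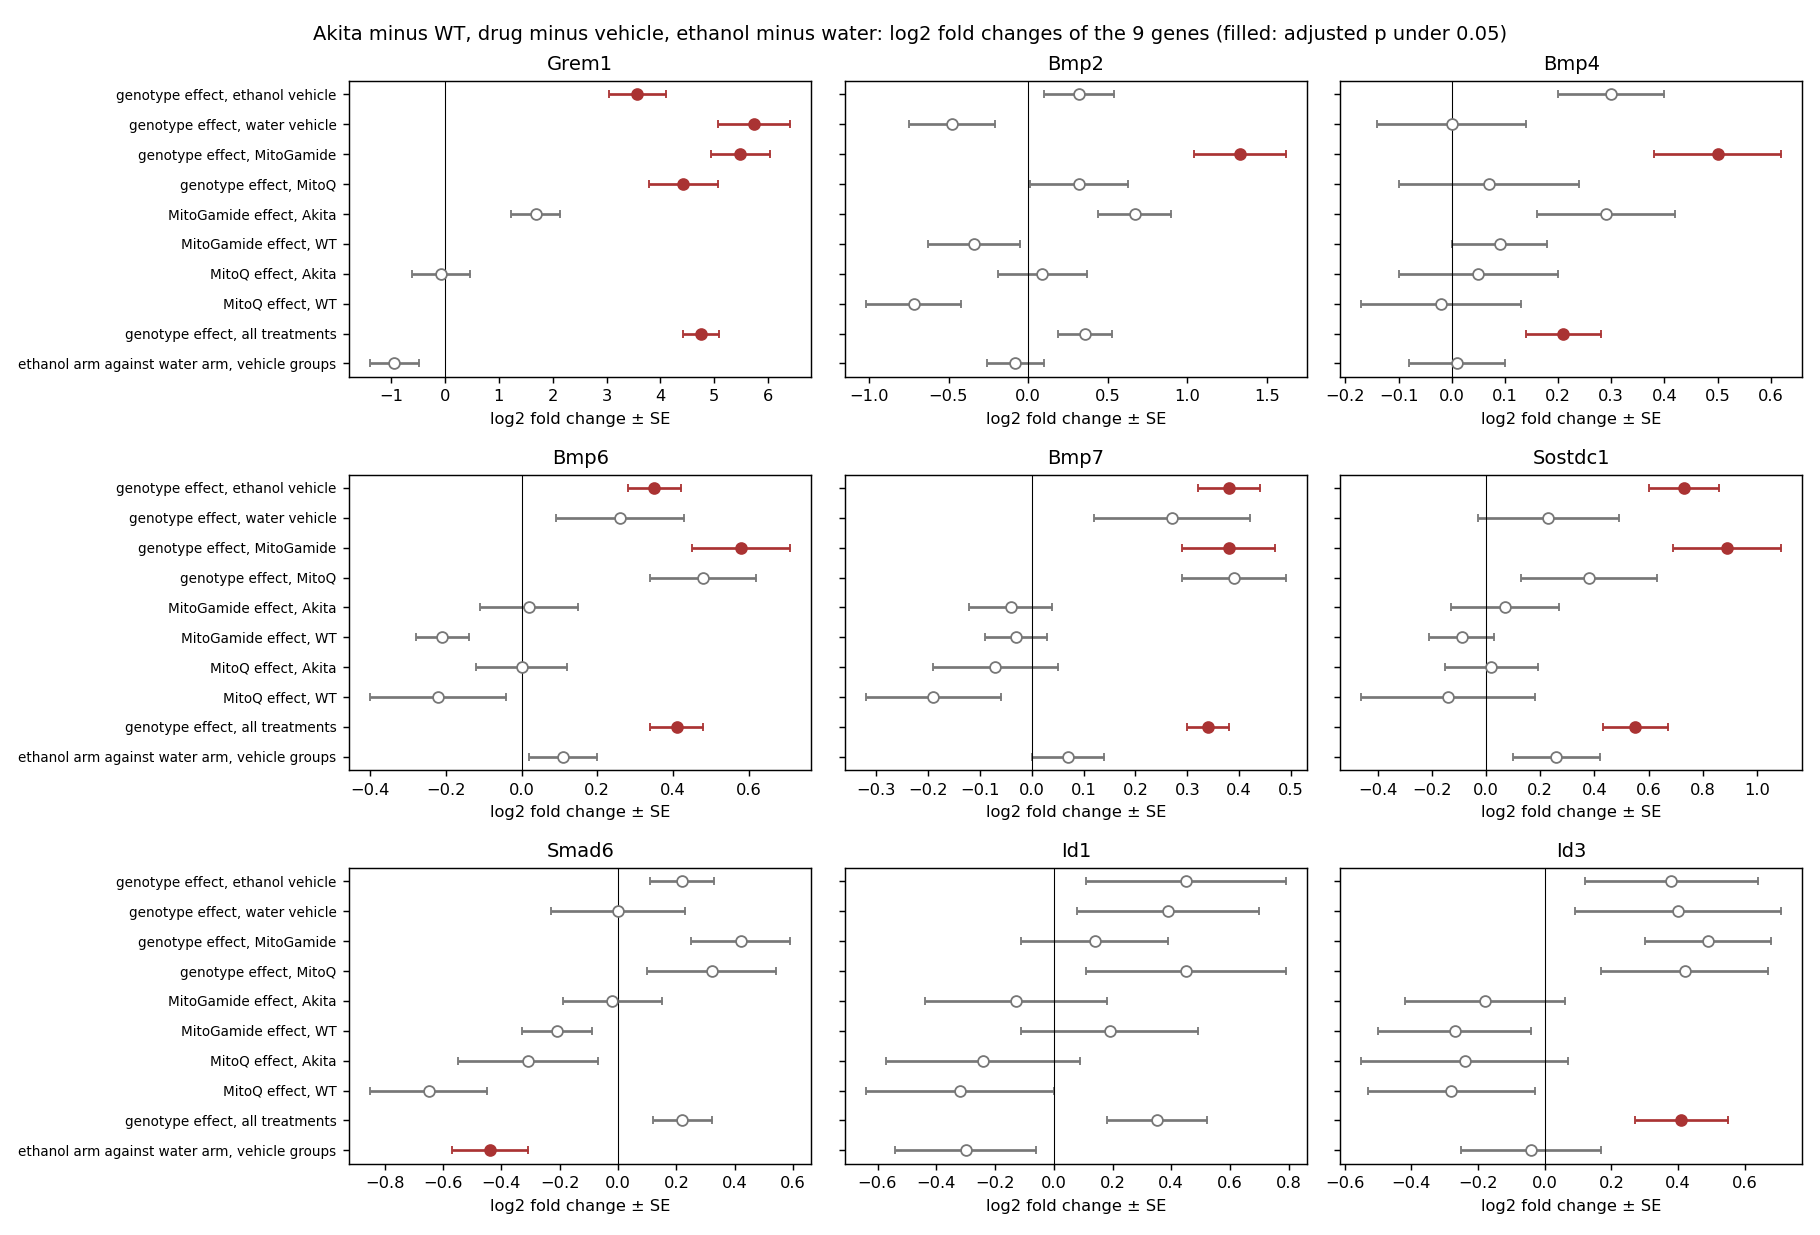
Log2 fold change ± SE (x axis, a separate scale for each gene) of the 9 genes in 10 comparisons (y axis), filled red where the adjusted p was under 0.05. The genotype differences of Grem1, between 3.57 and 5.74 within a treatment, are all filled, and no drug effect is.

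Neither drug moved any of the 9 genes past the threshold in edgeR. In Akita mice on MitoGamide, 1.26% of all 17051 genes were called (214 genes), and this number ranged from 0 (without replicate 1 or 2 of the vehicle group) to 802 (without replicate 5 of the MitoGamide group) when 1 library was left out, and was 0 with a replicate block. An unadjusted p under 0.05 was reached by 20.9% of all genes and by 3 members, namely Grem1, Bmp2 (log2 fold change 0.67 ± 0.23, adjusted p = 0.133) and Bmp4 (0.29 ± 0.13, adjusted p = 0.219). Beside these, the endothelial markers had 2 of 7 called higher in the same comparison, with summed levels of 341 to 392 CPM on vehicle and 415 to 614 CPM on MitoGamide, and the fibroblast and mesangium markers summed to 127 to 162 and 168 to 237 CPM with 0 of 6 called. Smooth muscle markers summed to 20.1 to 35.9 CPM on vehicle and 33.9 to 58.6 CPM on MitoGamide, with 0 of 3 called. The part of these marker lists in the values of the 3 genes was not tested.

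In WT mice on MitoGamide, 0 of 17395 genes were called by edgeR (1841 at an unadjusted p under 0.05, and 74 by DESeq2), and Bmp6 had -0.21 ± 0.07 (adjusted p = 0.331). MitoQ in Akita mice gave 0 of 18496 called (363 unadjusted, 0 by DESeq2), and MitoQ in WT mice gave 0 of 17881 (575 unadjusted, 2 by DESeq2). In the latter, Smad6 had -0.65 ± 0.2 and Bmp2 -0.72 ± 0.3 (adjusted p = 1 for both). In both WT comparisons 8 of the 9 genes were tested, without Grem1.

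Compared per kilobase of annotated exons, Sostdc1 had the highest median level in WT mice (15.9 CPM per kilobase), followed by Bmp6 (12.2), Id3 (9.38), Bmp7 (7.07), Id1 (6.32), Bmp4 (5.78), Smad6 (1.87) and Bmp2 (0.419), and Grem1 was lowest (0.0439). In Akita mice Grem1 had a median of 1.04 CPM per kilobase, above Bmp2 (0.534) and below Smad6 (2.21). The order of the other 8 genes in Akita mice was the same as in WT mice.

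To see which members varied together among mice of the same group, each group's mean was taken off the log2 CPM values. Id1 and Id3 had a Pearson r of 0.87 over 40 libraries (0.86 without the library that stood apart), the highest of the 36 pairs. The next were Smad6 with Id3 (0.41) and Bmp2 with Smad6 (0.34). Grem1 had its lowest values with Id3 (-0.45) and Id1 (-0.41), and its r with Bmp2, Bmp4, Bmp6 and Bmp7 was 0.09, -0.16, -0.22 and -0.29. Each pair comes from the same libraries and shares their depth and RNA quality, so that these are descriptions of this set of libraries. The 20 WT libraries held between 0 and 9 counts of Grem1, near the floor, so that every r of Grem1 here and below is uncertain.

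**Figure D4:**
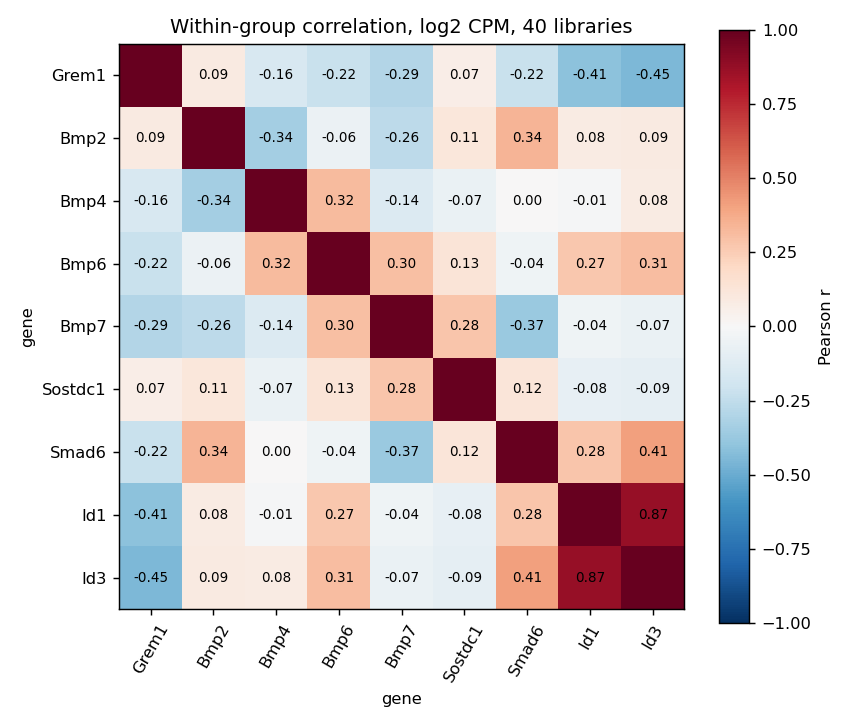
Pearson r between the 9 genes (both axes) of log2 CPM after removal of group means, over 40 libraries, with red for positive and blue for negative values. Id1 and Id3 share the highest value (0.87), and Grem1 has negative values with both (-0.41 and -0.45).

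Among all genes whose mean was 10 counts or more, the gene most like Id1 was Id3, and the next was Smad7 (r = 0.68), another inhibitory Smad. Bmp6 was most like Klf13 and H6pd (both 0.84), Bmp7 most like Lpar3 (0.82), Sostdc1 most like Naglu (0.84), Bmp4 most like Mtarc1 (0.71), Smad6 most like Pgs1 (0.72) and Bmp2 most like Synpo2 (0.59). Grem1 was most like Pappa (0.64), which encodes a protease of insulin-like growth factor binding proteins. Without the library that stood apart, Pappa stayed first for Grem1 (0.63), Lpar3 for Bmp7 (0.85) and Naglu for Sostdc1 (0.77), while Smad6 and Bmp2 had other genes first (Pank4 at 0.78 and Slfn8 at 0.74) and Bmp4 and Bmp6 exchanged their first 2.

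Set against the summed cell type markers in the same way, Grem1 had r = 0.32 with principal cell, 0.29 with smooth muscle, -0.01 with fibroblast and mesangium, -0.08 with podocyte and -0.37 with proximal tubule markers. Bmp7 had 0.76 with proximal tubule markers (0.81 without the library that stood apart). Sostdc1 had 0.66 with thick ascending limb and -0.68 with distal convoluted tubule markers (0.53 and -0.58 without that library). Between genotypes over all treatments, 11.0% of all genes were called higher in Akita mice and 22.8% in either direction. Of the markers, 4 of 4 principal cell (summed medians 139 and 214 CPM), 3 of 5 podocyte, 3 of 6 fibroblast and mesangium and 1 of 3 distal convoluted tubule markers were called higher. Called lower were 3 of 7 proximal tubule (13700 and 10500 CPM), 2 of 4 macrophage, 1 of 4 thick ascending limb and 1 of 4 liver markers. Of 7 endothelial markers, 3 were higher and 1 lower. Of 4 intercalated cell and 3 smooth muscle markers, 0 were called. The part of these markers in the genotype differences of the 9 genes was not tested.

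Other genes of the pathway came from a list of 53, of which 34 passed the filter on low counts. Over all treatments 9 of these were called higher and 2 lower in Akita mice (32.4% in either direction, beside 22.8% of all genes), with a median log2 fold change of 0.08 beside -0.02 for all genes. This list and the TGF-beta list below were chosen with earlier results of these data known, so nothing is read from their counts.

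Among the other antagonists and modulators, Nbl1 (0.62 ± 0.17), Fstl3 (0.55 ± 0.1) and Fstl1 (0.38 ± 0.08) were called higher, and 0 were called lower. Both ligands tested were higher, namely Bmp15 (1.24 ± 0.28), best known from the oocyte, and Bmp3 (0.7 ± 0.14). Of 10 receptors and co-receptors, only Eng, a co-receptor of the endothelium, was called (0.34 ± 0.07), and the type I receptor Bmpr1a (-0.01 ± 0.1) and the type II receptor Bmpr2 (0.07 ± 0.08) were not.

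Among 7 Smads and their regulators, the ubiquitin ligase Smurf1 (0.27 ± 0.05) and the receptor-activated Smad1 (0.24 ± 0.07) were higher, and the inhibitory Smad7 (-0.19 ± 0.06, adjusted p = 0.0238) and the ubiquitin ligase Smurf2 (-0.24 ± 0.06, adjusted p = 0.00507) were lower. The targets Id2 (-0.13 ± 0.11), Id4 (-0.37 ± 0.16) and Atoh8 (0.33 ± 0.17) were not called, so that of 3 further targets tested 0 were called (1 at an unadjusted p under 0.05). In Akita mice on MitoGamide, Fstl1 was the 1 gene of this list that was called (0.64 ± 0.14, adjusted p = 0.0466). This call was lost when any 1 library but replicate 5 of the MitoGamide group was left out (log2 fold changes between 0.54 and 0.71), with a replicate block and with all 40 libraries in one fit, and the adjusted p over all alternatives was between 0.00163 and 0.111.

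**Figure D5:**
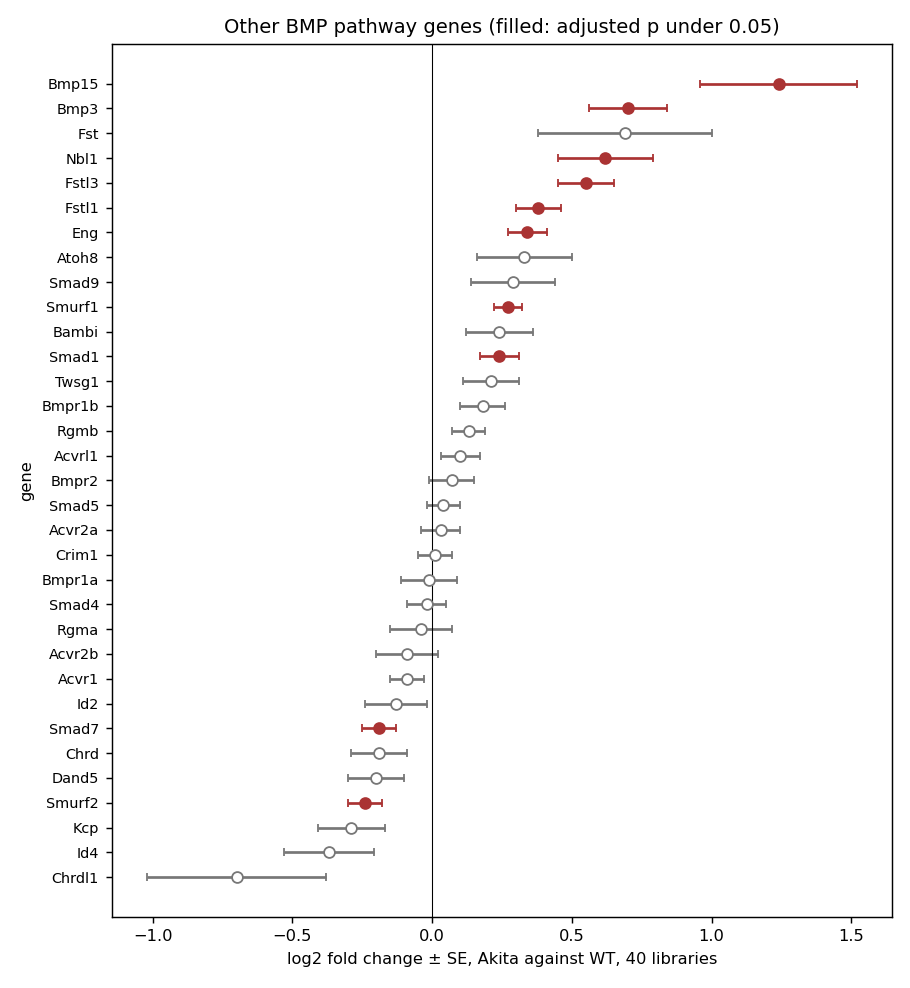
Log2 fold change ± SE between Akita and WT mice over 40 libraries (x axis) for other BMP pathway genes that passed the filter and are reported here (y axis, in order of size), filled red where the adjusted p was under 0.05. Bmp15 has the highest value shown (1.24), and Smad7 (-0.19) and Smurf2 (-0.24) are the filled genes to the left of 0.

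Fmn1, the neighbour of Grem1 on chromosome 2 (chr2:113327736-113716767), differed far less and in the other direction, with -0.16 ± 0.06 over all treatments (adjusted p = 0.0347). Of 10 genes of the related TGF-beta pathway, 3 were called higher in Akita mice (11.0% of all genes were), among them the ligands Tgfb2 (0.42 ± 0.15, adjusted p = 0.0319) and Tgfb3 (0.42 ± 0.15, adjusted p = 0.0424). Without the MitoGamide groups 0 of the 10 were called. Over all alternatives the adjusted p reached 0.5 for Tgfb3, 0.215 for Tgfb2, 0.346 for Fmn1, 0.318 for Smad7, 0.175 for Smurf2 and 0.102 for Nbl1, whereas Bmp15, Bmp3, Fstl3, Fstl1, Eng, Smurf1 and Smad1 kept their calls in each alternative that tested them.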

How the data were processed

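Renal cortex RNA of 40 mice was depleted of ribosomal RNA and sequenced by the authors with a directional kit. Reads were trimmed with Skewer and mapped to GENCODE mouse transcripts (GRCm38) with kallisto 0.46.1, and transcripts were summed per gene in R 4.0.2. The deposited values are estimated counts (expected counts), whole numbers without scaling, and were used as deposited. Of 55401 gene identifiers, 55141 were found in the GENCODE M21 annotation used for positions.

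In R 4.3.3, edgeR 4.0.16 (TMM, quasi-likelihood test) was fitted on the libraries of each comparison, keeping genes whose mean was 10 or more counts, although the study names DESeq2. The genotype effect over all treatments had treatment as a factor. CPM used effective library sizes, and log2 CPM a prior count of 2. The members and lists were chosen with earlier results of these data known. List genes named are those called, up to 8 per direction by p, and Smad1, the ninth, was named after its value was seen. Some list genes enter the counts but are not reported here by name. Alternatives were DESeq2 1.42.0, RLE scaling, other filters, a replicate block, all 40 libraries in one fit, and libraries or groups left out. Same-numbered samples correlated between -0.45 and 0.66, and the numbers were not treated as pairs. On simulated counts for the ethanol genotype comparison, 76.5% of 200 genes changed 2-fold were recovered (17537 genes tested). Most differences of the members were smaller than 2-fold, and the recovery of smaller differences was not simulated.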

Additional observations from a re-analysis of the deposited data

Results flagged for a closer look

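In 7 of 72 groups of 5 values (9 genes in 8 groups), 1 library lay far from the other 4, with a gap above 0.71 of the range. For independent, normally distributed values this cutoff gives about 1 in 20 groups, or 3.6. The CPM values of the 9 genes come from the same libraries and need not be normal, so nothing is read from the number found. Grem1 was at 17.8 CPM in Akita mice on water, replicate 5, and between 3.65 and 5.46 CPM in the other 4. In Akita mice on MitoGamide, replicate 5 had 24.1 CPM of Bmp4 (the others 15.7 to 17.5) and 101 CPM of Bmp6 (the others 60.6 to 63). In WT mice on the ethanol vehicle, replicate 3 had 64.2 CPM of Bmp6 (the others 50.4 to 54.3) and 13.5 CPM of Id1 (the others 4.68 to 6.18). Sostdc1 was at 62 CPM in Akita mice on the ethanol vehicle, replicate 4 (the others 42.3 to 45.9), and at 11.5 CPM in WT mice on MitoQ, replicate 3 (the others 28.5 to 31.1). The last of these is the library that stood apart from the rest of the series.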

How the results depend on the processing

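No called value changed sign under any alternative. With all 40 libraries in one fit, 2 members were called in the ethanol genotype comparison, in place of 4 (Bmp6 and Sostdc1 were lost, adjusted p = 0.182 and 0.0653), while calls over all genes fell from 2910 to 844, and 2 with MitoQ, in place of 1 (308 and 101 over all genes). DESeq2 called 3 members in the MitoQ genotype comparison (415 of all genes) and 1 (Grem1) for MitoGamide in Akita mice (1069 of all genes, beside 214 in edgeR). With at least 10 counts required in every library, which removes Grem1, 0 members were called with water and 0 with MitoQ (0.61% and 0.731% of all genes). Over all treatments, 6 genes of the BMP list and 1 of the TGF-beta list were then called (27.3% of all genes). Without the MitoGamide groups, 0 TGF-beta genes were called (13.3% of all genes). Leaving out replicates gave 1 to 4 TGF-beta genes and 0 to 2 members between vehicle arms. Without replicate 1 or 3 of every group, 1 TGF-beta gene was called (18.1% and 22.1% of all genes). Between arms 0 members were called without replicate 2 or 3 of each group (0.0166% and 0.0507% of all genes), and 2 without replicate 1 (48.8%). With the replicate number as a block, member counts stayed at 4 (ethanol), 1 (water), 6 (MitoGamide), 1 (MitoQ) and 6 (all treatments). Over all genes, 14.5%, 0.175%, 13.7%, 0.265% and 22.7% were called in these fits, in that order. Tgfb3 lost its call over all treatments with this block (0.41, adjusted p = 0.0519), which left 2 TGF-beta genes. Labels do not say that a number marks a shared litter or day. Bmp2, and Grem1 in WT mice, had few counts, so that small differences in them may have been missed at this depth. Mice of a group came from separate animals, and 5 per group limit the precision.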
